A study of Saccharomyces cerevisiae with 73 samples.

Results

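The comparison asked which messenger RNAs of Saccharomyces cerevisiae still differed 240 min after the loss of every external amino acid, in cells that kept dextrose as their carbon source. It used the 240 min arrays of 3 dextrose cultures, 5 of the 73 arrays of the series, and set 2 cultures without amino acids against 1 culture with all of them. All cells were strain KCN118, an S288C derivative that is MATalpha and carries the ade2 allele, grown at 28 °C in complete medium with 2% dextrose and 75 uM inositol to an OD600 of 0.6, then collected on a filter, washed and moved to a new medium. The medium called SD held dextrose with neither amino acids nor inositol (1 array), SD+ino held dextrose and inositol without amino acids (2 arrays), and SD+aa held dextrose and all amino acids without inositol (2 arrays). Each medium was 1 culture, each array compared shifted cells (Cy5) with cells taken before the shift (Cy3, t = 0), and dyes were not swapped. No dextrose culture of the fit had both amino acids and inositol, so inositol was fitted as 1 term shared by the SD and SD+ino pair and the 4 pairs of ethanol and galactose cultures, and SD+aa, the only culture with all amino acids in dextrose, could not be replaced by another.

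Values are log2 ratios of shifted over t = 0 cells and are called levels; a difference is the level without amino acids minus the level with all of them. The deposited table does not state its log base or direction. It was read here as log10 of shifted over t = 0 cells; were the base 2, every log2 value below would be 3.32 times smaller, and were the ratio inverted, every sign would turn. Between 6227 and 6252 probes had a value on the 5 arrays. The titles give both SD+ino arrays as technical replicate 1, the second with the note ojgrid, which is not explained, so they may be 2 readings of 1 hybridization. They differed by at most 0.16 at any gene (r = 0.9999 across genes), against an SD of the difference of 0.16 between the 2 SD+aa arrays (r = 0.71), and were counted as 1 sample. The cultures SD and SD+ino differed with an SD of 0.27 across genes, and 19 genes differed 2-fold or more between them. The level of all genes had an SD of 0.45 in SD, 0.49 in SD+ino and 0.19 in SD+aa, and of 1.07 to 1.60 in the ethanol and galactose cultures that entered the same fit.

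Yeast makes every amino acid itself, and several control systems set how much. Gcn4 activates synthesis genes of many amino acid pathways when uncharged transfer RNA accumulates; Met4, with Cbf1 and Met28, activates uptake of sulfate and its reduction to sulfide; GATA factors activate genes for the use of poor nitrogen sources, which good nitrogen sources keep off (nitrogen catabolite repression). A sensor at the plasma membrane, made of Ssy1, Ptr3 and Ssy5, activates permease genes such as BAP2, BAP3, TAT1 and AGP1 when amino acids are present outside the cell.

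Of the 5488 genes tested, 38 (0.692%) differed at an adjusted p under 0.05 (limma, Benjamini-Hochberg over all genes), 33 of them higher (0.601%) and 5 lower (0.0911%) without amino acids. At an unadjusted p under 0.05 there were 213 genes (3.88%), which is below the share of 0.05 that this cut passes on average where no gene differs. Quantile normalization, which gives the narrow dextrose arrays the spread of the ethanol and galactose arrays, called 1471 genes, 693 of them higher, and moved the median of all genes by -0.02. Genes of sulfate assimilation, ammonium and poor nitrogen use, and single steps of amino acid and purine synthesis made up most of the higher genes, and 4 amino acid permeases and PHO81 were the lower ones. The smallest difference that passed was 1.79 (VID24), and the median SE over all genes was 0.34. In 103 genes (1.88%) both cultures without amino acids lay 2-fold or more above SD+aa, and in 12 (0.219%) both lay 2-fold or more below; all 38 genes that passed were among them. Of the 38, 28 were on the gene lists described below, which held 299 of the 5488 genes tested. The lists were chosen with earlier results of these data known, so this count is not independent support.

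**Figure D1:**
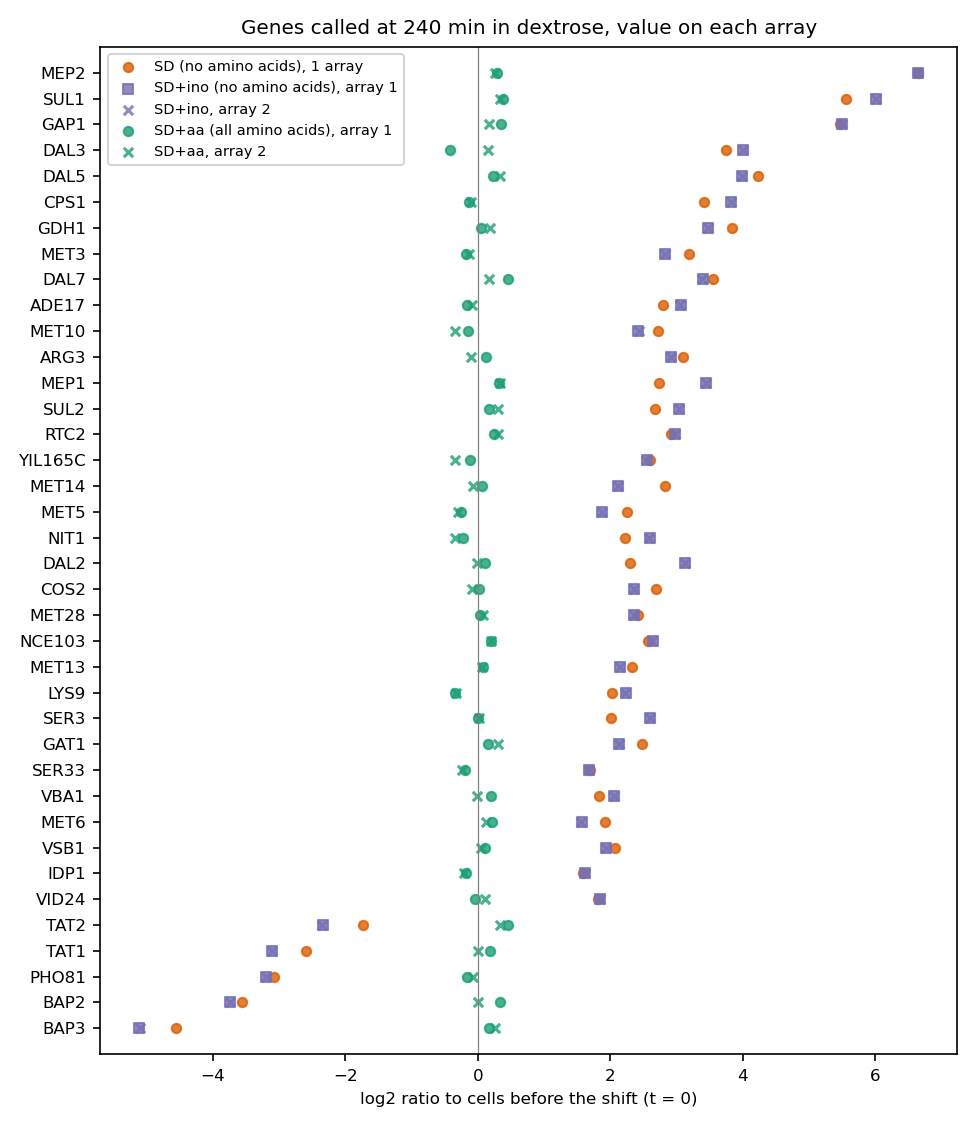
The log2 level against t = 0 at 240 min on each of the 5 arrays is plotted for the 38 genes that passed the test, with the genes in order of their fitted difference. The 2 SD+aa arrays lie near 0 for every gene, and the SD array and the 2 SD+ino arrays, which nearly coincide, lie on one side of them for each gene, from 6.64 for MEP2 to -5.11 for BAP3.

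The genes that were lower without amino acids were led by the permeases that import branched-chain and aromatic amino acids. BAP3 (YDR046C), a branched-chain amino acid permease of broad range, read -4.56 in SD, -5.11 and -5.09 in SD+ino, and 0.17 and 0.26 in SD+aa. Its fitted difference was -5.01 ± 0.30 (SE; adjusted p = 0.000441, limma), with 2 cultures against 1 as for each gene below. The other branched-chain permease, BAP2 (YBR068C), read -3.56 in SD, -3.74 and -3.74 in SD+ino, and 0.33 and -0.00 in SD+aa, a difference of -3.69 ± 0.44 (adjusted p = 0.0104, limma). Thus both genes were at the t = 0 level with amino acids and far under it in both cultures without them. TAT1 (YBR069C), a permease for tyrosine, tryptophan and valine, is the gene next to BAP2 on chromosome II. TAT1 levels were -2.60 in SD, -3.11 and -3.11 in SD+ino, and 0.18 and 0.00 in SD+aa, a difference of -3.07 ± 0.42 (adjusted p = 0.0171, limma). For TAT2 (YOL020W), a tryptophan and tyrosine permease, they were -1.74, -2.34 and -2.34 without amino acids and 0.46 and 0.33 with them, a difference of -2.57 ± 0.40 (adjusted p = 0.0281, limma).

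The list of permeases under the amino acid sensor had 10 tested members, of which 4 fell, none passed in the other direction and 2 had a difference above 0. Of all genes, 0.0911% fell and 44.9% had a difference above 0. The median difference of the list was -1.76, against -0.04 over all genes. AGP1, a broad permease for many amino acids, had levels of -1.36 in SD, -1.81 and -1.82 in SD+ino, and 0.34 and 0.25 in SD+aa, and its difference of -1.69 ± 0.49 did not pass (adjusted p = 0.412, limma). The methionine permease gene MUP1 lay at -1.91, -1.89 and -1.89 without amino acids and at 0.14 and -0.03 with them, a difference of -1.84 ± 0.36 (adjusted p = 0.0861, limma). Both genes were lower in both cultures without amino acids than on either SD+aa array. The arginine permease gene CAN1, on the same list, lay the other way, with levels of 1.50, 1.72 and 1.73 without amino acids and 0.06 and -0.05 with them (difference 1.72 ± 0.42, adjusted p = 0.231, limma). The 6 other permeases on a list of their own had a median difference of 0.05, and none passed; the sign of this median depended on the scaling (-0.09 after quantile normalization).

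Genes for ammonium uptake and for nitrogen sources other than amino acids had several of the largest differences. MEP2 (YNL142W), the high-affinity ammonium permease, was at the upper limit of the deposited values (6.64) in both cultures without amino acids, and at 0.29 and 0.26 in SD+aa. Its difference of 6.41 ± 0.56 (adjusted p = 0.00426, limma) therefore rests on levels that are only bounds from below. The spread between SD and SD+ino is hidden by the limit at this gene, so the SE and adjusted p rest on the bounded levels too. GAP1 (YKR039W), the general amino acid permease, read 5.46 in SD, 5.50 and 5.49 in SD+ino, and 0.34 and 0.17 in SD+aa, a difference of 5.38 ± 0.66 (adjusted p = 0.0109, limma). The ammonium permease gene MEP1 (YGR121C) lay at 2.73, 3.45 and 3.45 without amino acids and at 0.32 and 0.33 with them, a difference of 2.84 ± 0.44 (adjusted p = 0.0281, limma). GAP1 was thus higher in the same cultures in which BAP3, BAP2, TAT1 and TAT2 were lower.

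Yeast degrades allantoin to urea and glyoxylate with enzymes of the DAL genes, most of which form a cluster on chromosome IX. The allantoate permease gene DAL5 (YJR152W), which lies outside the cluster, read 4.22 in SD, 3.98 and 3.98 in SD+ino, and 0.23 and 0.34 in SD+aa, a difference of 3.97 ± 0.41 (adjusted p = 0.00472, limma). Of the 6 cluster genes, in their order DAL1, DAL4, DAL2, DCG1, DAL7 and DAL3, 3 passed the test. DAL3 (ureidoglycolate lyase) had levels of 3.75, 4.00 and 4.00 without amino acids and -0.42 and 0.15 with them, a difference of 4.13 ± 0.60 (adjusted p = 0.0281, limma). Its neighbour DAL7, a malate synthase that uses the glyoxylate, lay at 3.55, 3.39 and 3.39 against 0.46 and 0.17, a difference of 3.08 ± 0.36 (adjusted p = 0.00912, limma). For DAL2 (allantoicase) the levels were 2.30, 3.13 and 3.13 against 0.11 and -0.01, a difference of 2.64 ± 0.41 (adjusted p = 0.0281, limma). The other cluster genes, the allantoinase DAL1, the allantoin permease DAL4 and DCG1, had differences of 1.67, 1.40 and 1.19 that did not pass.

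The list of genes under nitrogen catabolite repression held 19 tested members: 8 rose, none fell, all 19 had a difference above 0, and the median was 2.04, where 0.601% of all genes rose and 44.9% lay above 0 (17 of the 19 lay above 0 after quantile normalization). The GATA activator GAT1 was 1 of the 8, with levels of 2.48, 2.13 and 2.13 without amino acids and 0.15 and 0.31 with them (difference 2.04 ± 0.35, adjusted p = 0.0447, limma). The GATA repressor gene DAL80 had a larger difference, 3.82, with an SE of 0.92 and did not pass (adjusted p = 0.25, limma). Proline use genes behaved alike on the scale of the difference, with 2.54 ± 0.52 for proline oxidase PUT1 and 1.77 ± 0.52 for the proline permease PUT4, and neither passed. Genes for breakdown of other amino acids, 10 on a list of their own, had a median difference of -0.08 and none passed. The arginase gene CAR1 (-0.84 ± 0.37) and the serine and threonine deaminase gene CHA1 (0.03 ± 0.35) are on that list.

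Ammonium enters amino acids through glutamate and glutamine. GDH1 (YOR375C), the NADP-dependent glutamate dehydrogenase that joins ammonium to oxoglutarate, read 3.83 in SD, 3.47 and 3.47 in SD+ino, and 0.05 and 0.19 in SD+aa. Its difference of 3.42 ± 0.44 (adjusted p = 0.0129, limma) was the only one to pass of 11 tested genes for glutamate, asparagine and proline synthesis. The second such dehydrogenase gene, GDH3, had a difference of 2.11 ± 0.38 (adjusted p = 0.0523, limma) and glutamine synthetase GLN1 one of 2.33 ± 0.61 (adjusted p = 0.29, limma). The asparagine synthetases lay the other way, with -0.31 ± 0.40 for ASN1 and -0.90 ± 0.34 for ASN2, and neither passed. Over all genes 0.601% rose and 44.9% lay above 0. The 14 genes that supply oxoglutarate and oxaloacetate had a median fitted difference of 1.14. Without the fit their medians were lower, 0.98 for SD and 0.94 for SD+ino against SD+aa. Of the 14, 12 had a fitted difference above 0 and 1 passed. That gene was IDP1, the mitochondrial NADP-dependent isocitrate dehydrogenase, with levels of 1.59, 1.62 and 1.62 against -0.17 and -0.21 (difference 1.81 ± 0.27, adjusted p = 0.0266, limma). Pyruvate carboxylase PYC1 (2.44 ± 0.51), the retrograde-response gene DLD3 (2.08 ± 0.55) and peroxisomal citrate synthase CIT2 (2.03 ± 0.67) did not pass, and the sign of CIT2 depended on the scaling (-0.94 after quantile normalization). CIT2 lay 1.64 above SD+aa in SD and 1.70 above it in SD+ino, both less than its fitted difference.

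Genes of sulfate uptake and of its reduction to sulfide were higher without amino acids at nearly every step. SUL1 (YBR294W), a high-affinity sulfate permease, read 5.56 in SD, 6.01 and 6.01 in SD+ino, and 0.37 and 0.34 in SD+aa, a difference of 5.45 ± 0.52 (adjusted p = 0.00472, limma). The other sulfate permease gene, SUL2, lay at 2.67, 3.04 and 3.03 against 0.16 and 0.30, a difference of 2.79 ± 0.49 (adjusted p = 0.0496, limma). Sulfate is then activated and reduced in steps. MET3 (YJR010W), the ATP sulfurylase of the first step, read 3.19 in SD, 2.82 and 2.82 in SD+ino, and -0.18 and -0.13 in SD+aa, a difference of 3.24 ± 0.30 (adjusted p = 0.00472, limma). MET14, the kinase of the second step, had levels of 2.83, 2.12 and 2.12 against 0.06 and -0.07 (difference 2.68 ± 0.34, adjusted p = 0.0119, limma). The sulfite reductase subunits MET10 and MET5 differed by 3.02 ± 0.30 and 2.67 ± 0.40 (adjusted p = 0.00472 and 0.0266, limma). Between these steps, the reductase gene MET16 had a difference of 2.58 ± 0.54 that did not pass (adjusted p = 0.113, limma). In all, 6 of the 10 tested members rose and all 10 had a difference above 0, where 0.601% of all genes rose and 44.9% lay above 0. The median of the list was 2.68.

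Downstream of sulfide the list of methionine and cysteine synthesis had a median of 0.81. Of its 12 members 2 rose and 11 lay above 0, where 0.601% of all genes rose and 44.9% lay above 0. MET13 (methylenetetrahydrofolate reductase) lay at 2.33, 2.15 and 2.15 against 0.08 and 0.06 (difference 2.47 ± 0.38, adjusted p = 0.0281, limma). MET6 (YER091C), the methionine synthase that takes the methyl group MET13 makes, lay at 1.93, 1.57 and 1.56 against 0.21 and 0.12 (difference 1.87 ± 0.33, adjusted p = 0.0492, limma). The homoserine acetyltransferase MET2 and the sulfhydrylase MET17, which join homoserine with sulfide, had larger differences of 2.76 ± 0.54 and 2.50 ± 0.46 and did not pass (adjusted p = 0.0843 and 0.0628, limma). The single member below 0 was the cystathionine synthase CYS4 (-0.49 ± 0.28). Methionine salvage and permease genes, 6 tested, had 3 members above 0 and none past the test; the homocysteine methyltransferase SAM4 (-1.76 ± 0.41) and MUP1 were its lowest. Among 16 regulators of amino acid synthesis 1 passed, the Met4 cofactor MET28, with levels of 2.41, 2.36 and 2.36 against 0.03 and 0.07 (difference 2.59 ± 0.41, adjusted p = 0.0447, limma). GCN4 lay at 0.63, 0.44 and 0.44 without amino acids and at 0.18 and 0.37 with them (difference 0.51 ± 0.52, 95% interval -0.67 to 1.68); its activity is set mainly by translation, which these arrays do not measure.

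**Figure D2:**
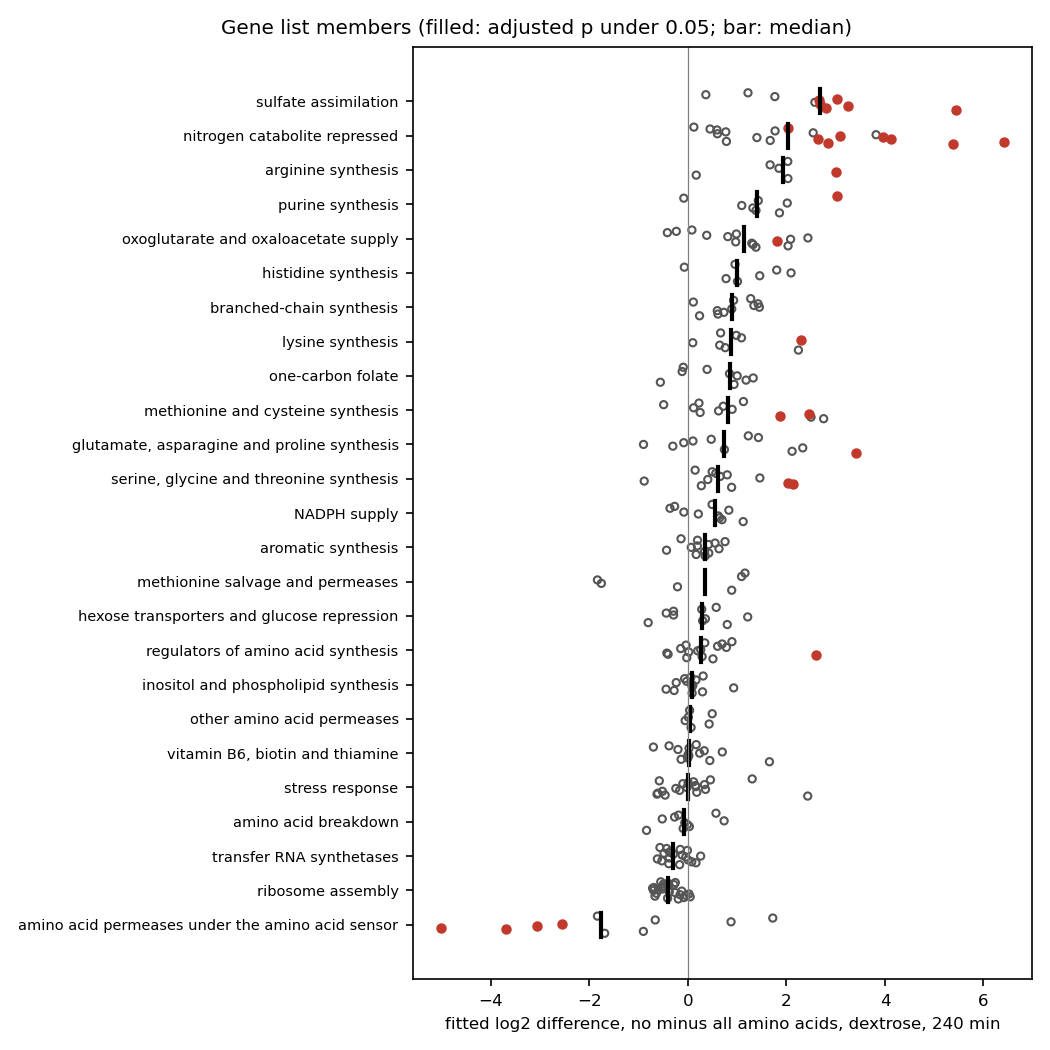
Each point is the fitted log2 difference of 1 tested gene at 240 min, by gene list, with filled points for an adjusted p under 0.05 (limma) and a bar at the list's median. Sulfate assimilation (median 2.68) and nitrogen catabolite repressed genes (2.04) lie farthest to the right, and the permeases under the amino acid sensor (-1.76) farthest to the left.

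In the other synthesis pathways most members lay above 0 and few passed, where 44.9% of all genes lay above 0 and 0.601% rose. Arginine synthesis had the highest median (1.94, 6 of 6 above 0). Without the fit its medians were 1.71 for SD and 1.78 for SD+ino against SD+aa, both below the fitted 1.94. In this list 1 gene rose. That gene, ARG3 (ornithine carbamoyltransferase), read 3.10 in SD, 2.92 and 2.92 in SD+ino, and 0.13 and -0.10 in SD+aa, a difference of 3.00 ± 0.46 (adjusted p = 0.0281, limma). Argininosuccinate synthetase ARG1 was lower with amino acids than at t = 0, with -0.55 and -0.68 in SD+aa against 1.14, 1.91 and 1.91 without, a difference of 2.03 ± 0.38 (adjusted p = 0.0656, limma). In lysine synthesis 1 of 8 genes rose, all 8 lay above 0, and the median was 0.87. LYS9 (saccharopine dehydrogenase, the step before last) lay at 2.03, 2.23 and 2.23 against -0.34 and -0.33 (difference 2.29 ± 0.39, adjusted p = 0.0447, limma), and LYS1, the last step, had a difference of 2.24 ± 0.44 (adjusted p = 0.0867, limma). The paralogous phosphoglycerate dehydrogenases SER3 and SER33, which open serine synthesis, rose by 2.14 ± 0.28 and 2.03 ± 0.32 (adjusted p = 0.0145 and 0.0281, limma); they were the ones to pass of 12 serine, glycine and threonine genes.

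Histidine (7 genes, median 1.01), branched-chain (11, median 0.89) and aromatic synthesis (13, median 0.34) had no gene past the test in limma, though 6, 11 and 11 of their genes lay above 0, against 44.9% of all genes. HIS4, an enzyme with several activities of the pathway, had levels of 1.43 in SD, 1.97 and 1.97 in SD+ino, and -0.39 and -0.28 in SD+aa, a difference of 2.09 ± 0.42 (adjusted p = 0.096, limma). LEU1 (isopropylmalate isomerase) had levels of 1.38, 1.21 and 1.21 against -0.15 and -0.22, a difference of 1.45 ± 0.35 (adjusted p = 0.209, limma). Both were higher in each culture without amino acids than on either array with them. The largest aromatic difference was 0.75 ± 0.43, for tryptophan synthase TRP5.

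The strain cannot complete adenine synthesis because of ade2, and the medium lists name amino acids and inositol only. Of 8 tested purine genes 1 rose and 7 lay above 0, where 0.601% of all genes rose and 44.9% lay above 0. The purine median was 1.40. ADE17 (YMR120C), the enzyme of the last steps to IMP, read 2.79 in SD, 3.06 and 3.06 in SD+ino, and -0.16 and -0.09 in SD+aa, a difference of 3.03 ± 0.36 (adjusted p = 0.0104, limma). Its paralogue ADE16 had a difference of -0.08 ± 0.41. The ADE2 probe itself gave levels of 1.36, 1.43 and 1.43 against 0.10 and 0.25, a difference of 1.38 ± 0.35 (adjusted p = 0.265, limma). One-carbon folate genes, 9 tested, had a median of 0.84 with none past the test, and NADPH supply genes, 10 tested, a median of 0.55 with none past it. Plain one-carbon medians were 0.43 for SD and 0.62 for SD+ino against SD+aa, both below the fitted 0.84.

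Genes outside the lists made up 10 of the 38, and were named after their values were seen where they are not among the 20 largest differences. CPS1 (YJL172W), a vacuolar carboxypeptidase, read 3.41 in SD, 3.82 and 3.81 in SD+ino, and -0.13 and -0.10 in SD+aa, a difference of 3.75 ± 0.41 (adjusted p = 0.00698, limma). RTC2 (YBR147W), a vacuolar membrane protein linked to export of basic amino acids, lay at 2.91, 2.98 and 2.98 against 0.24 and 0.30 (difference 2.75 ± 0.28, adjusted p = 0.00472, limma). The vacuolar basic amino acid transporters VBA1 and VSB1 differed by 1.93 ± 0.30 and 1.82 ± 0.28 (adjusted p = 0.0281 for both, limma). On chromosome IX the neighbouring reading frames YIL165C and NIT1, which correspond to parts of 1 nitrilase gene in other yeast strains, differed by 2.71 ± 0.45 and 2.66 ± 0.42 (adjusted p = 0.0377 and 0.0281, limma). Carbonic anhydrase NCE103 differed by 2.53 ± 0.37, the subtelomeric gene COS2 by 2.63 ± 0.33 and VID24, which recognises gluconeogenic enzymes for degradation, by 1.79 ± 0.27 (adjusted p = 0.0266, 0.0119 and 0.0266, limma). COS2 belongs to a family of close copies whose signals a cDNA array may not separate.

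PHO81, the inhibitor of the kinase that holds phosphate genes off, was the lower gene outside the permeases. It read -3.08 in SD, -3.19 and -3.19 in SD+ino, and -0.16 and -0.08 in SD+aa, a difference of -3.17 ± 0.42 (adjusted p = 0.0152, limma). The acid phosphatase gene PHO3 lay at -1.43, -2.01 and -2.01 against 0.17 and 0.08, a difference of -1.84 ± 0.36 (adjusted p = 0.0818, limma).

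Growth and stress lists had no member past the test at 240 min, but this test recovered 0% of simulated log2 changes of 1. Ribosome assembly genes (25 tested) had a median fitted difference of -0.40, with 2 above 0; the plain medians were -0.11 for SD and -0.43 for SD+ino against SD+aa. After quantile normalization the median was -0.18, with 10 above 0. Of all 5488 genes, 44.9% had a fitted difference above 0, and 2614 genes did after quantile normalization. Transfer RNA synthetases (19) had a median of -0.30, with 4 above 0, and of -0.17 with 7 above 0 after quantile normalization. Their plain medians were -0.08 for SD and -0.12 for SD+ino against SD+aa. The fitted median lies outside both because the fit adds the inositol term shared with ethanol and galactose. Stress response genes (19) had a median of 0.00, which became -2.30 after quantile normalization, and the heat-shock gene HSP12 had the highest difference of that list (2.43 ± 0.68, adjusted p = 0.372, limma). Inositol and phospholipid synthesis genes (14) had a median of 0.08. INO1, the inositol-repressed synthase of inositol phosphate, lay at -0.13 in SD, -0.00 and -0.01 in SD+ino, and -0.02 and -0.08 in SD+aa (difference 0.08 ± 0.36), so no array stood out at this gene, although SD and SD+aa lacked inositol. Vitamin B6, biotin and thiamine genes (15) had a median of 0.02, and SNZ1 of vitamin B6 synthesis the highest difference (1.65 ± 0.62, adjusted p = 0.928, limma). Hexose transporter and glucose repression genes (10) had a median of 0.29.

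The same fit at earlier times shows how the 240 min state was reached in these cultures. At 15 min 52.1% of the genes tested passed, at 30 min 36.4%, at 60 min 20.1% and at 120 min 2.64%, against 0.692% at 240 min. Each time had its own fit and its own spread between cultures of all carbon sources, so a call needed differences of unlike size. ARG82 passed at 15 min with 0.89 (adjusted p = 0.000418, limma), whereas the smallest difference that passed at 240 min was 1.79. The fall in these shares is therefore not a count of genes that returned to the level with amino acids. The 33 higher genes had median differences of 2.82, 3.61, 3.07, 2.83 and 2.68 at 15, 30, 60, 120 and 240 min. The 5 lower genes had -0.89, -2.04, -2.90, -3.14 and -3.17. These series share the t = 0 cells and the cultures, and no test between times was made.

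The lists differed in their courses. Sulfate assimilation had its highest median at 15 min (5.24, then 4.54, 3.01, 2.60 and 2.68), and nitrogen catabolite repressed genes at 60 min (1.63, 3.12, 3.14, 2.54 and 2.04). Arginine synthesis stayed between 1.94 and 2.35 at all 5 times, whereas lysine synthesis had medians of -0.49 and -1.22 at 15 and 30 min and 0.39, 0.90 and 0.87 later. Permeases under the sensor had a median of 1.19 at 15 min and of -0.09, -1.76, -1.86 and -1.76 afterwards. BAP3 was above SD+aa at 15 min (1.42) and below it at 30, 60, 120 and 240 min (-1.75, -3.88, -3.94 and -5.01). AGP1 moved the same way, from 3.55 and 1.89 at 15 and 30 min to -1.87, -2.18 and -1.69. Ribosome assembly had medians of -3.31, -3.65, -2.53, -0.92 and -0.40. At 240 min it still lay below the median of all genes (-0.04), with 2 of 25 members above 0 against 44.9% of all genes. Stress genes went from 1.40, 1.79 and 2.00 to 0.97 and 0.00.

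**Figure D3:**
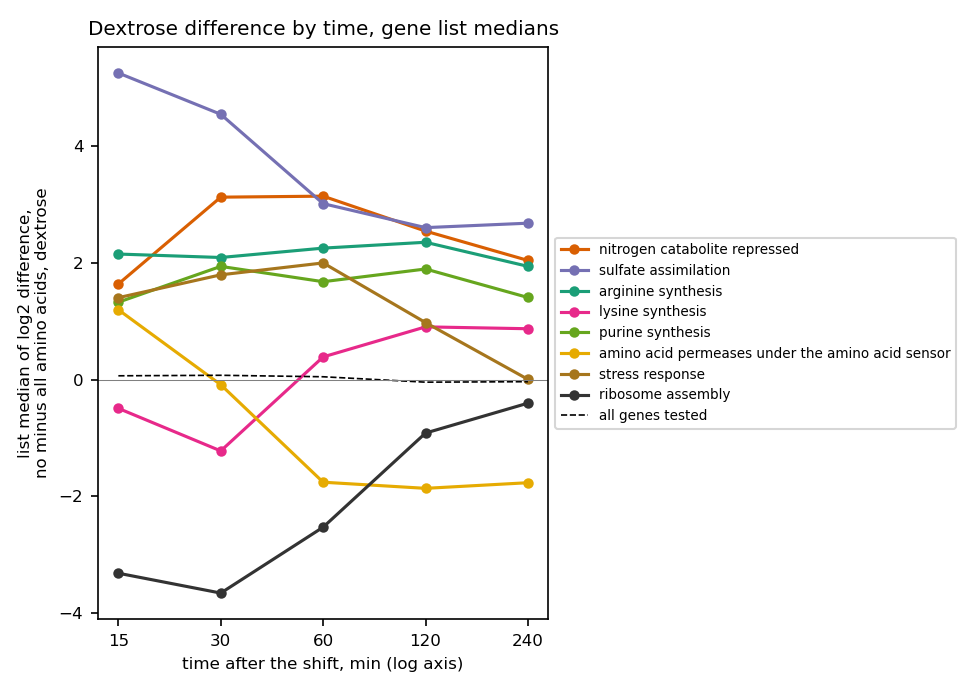
Median fitted log2 difference without against with all amino acids in dextrose, by gene list, at 15, 30, 60, 120 and 240 min after the shift. Ribosome assembly starts at -3.31 and ends at -0.40, whereas permeases under the amino acid sensor start at 1.19 and end at -1.76.

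Media with part of the amino acids in dextrose, both with inositol per the array titles, give a further reading at 240 min, as single cultures with no test. The labels write them with one-letter amino acid codes as LIVWHM (which includes methionine) and ARNCQGKPSDEFTY (which does not). The series text describes them otherwise: for the first it does not name D, E and Y among the amino acids left out, and for the second it gives no inositol; the titles were followed, and the values below hold only under that reading. Of the 33 higher genes, 11 of the 31 with a value lay 2-fold or more above t = 0 with LIVWHM (2.83% of all genes did) and 20 of 33 with ARNCQGKPSDEFTY (1.66%). Of the 5 lower genes, 0 lay 2-fold or more below t = 0 with LIVWHM (1.62%) and 1, PHO81, with ARNCQGKPSDEFTY (0.164%). The sulfur genes divided between these media. MET3 had a level of -2.18 with LIVWHM and 2.36 with ARNCQGKPSDEFTY, and MET6 had -2.44 and 1.55. SUL1 stood at 0.17 and 3.85, and ADE17 at -2.59 and 3.43. Some nitrogen genes lay the other way: MEP2 had 3.49 with LIVWHM and 0.01 with ARNCQGKPSDEFTY, MEP1 2.48 and 0.25, GAP1 4.23 and 0.61, and GDH1 1.98 and 0.57. Others did not divide: DAL7 had 0.13 in both, GAT1 0.63 and 0.69, and DAL5 0.99 and 0.55. For DAL2, DAL3 and DAL80 no LIVWHM value was at hand.

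Genes of single pathways followed the letters in part. Levels of LEU1 were -1.42 with LIVWHM and 1.71 with ARNCQGKPSDEFTY, and those of HIS4 -0.28 and 2.72. LYS9 had 2.94 and 1.07, although K stands among the letters of the second medium, and LYS1 had 3.66 and 1.79. ARG3 read 2.48 and 1.58 and ARG1 2.40 and 2.17, with R among the same letters. The permeases that were low without any amino acid were near t = 0 in both partial media: BAP3 at -0.01 and 0.37, BAP2 at -0.54 and 0.59, TAT1 at 0.01 and -0.08, and TAT2 at 0.55 and 0.11. AGP1 lay at 2.50 with LIVWHM and 0.48 with the other set, and PHO81 at 0.17 and -1.50.

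**Figure D4:**
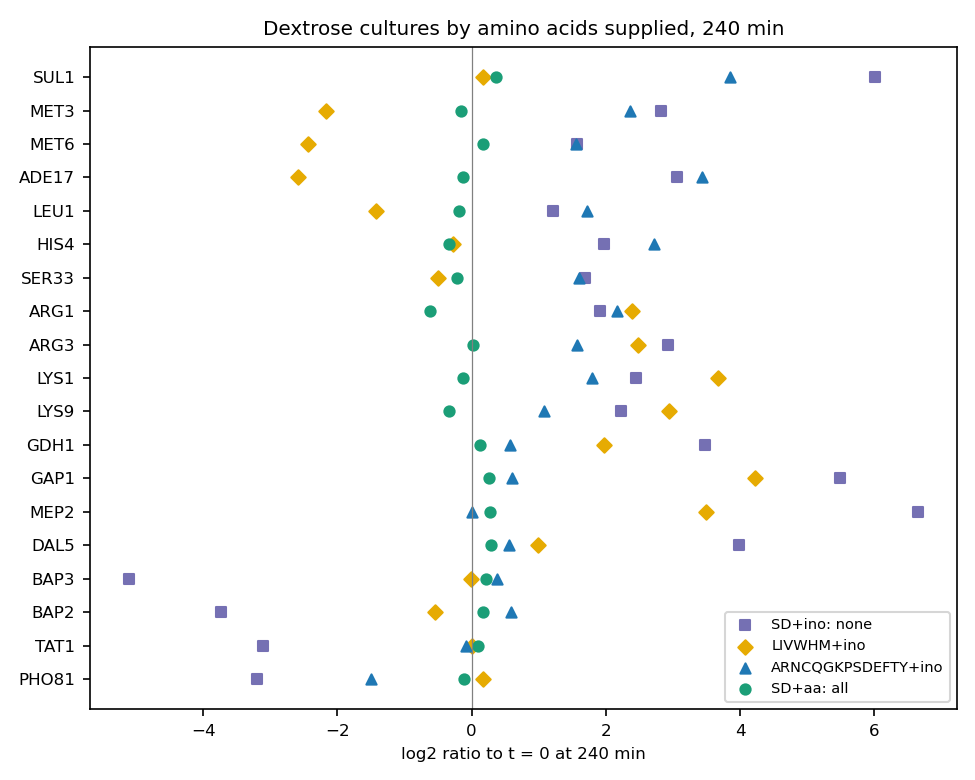
Log2 level against t = 0 at 240 min in 4 dextrose cultures that differ in the amino acids supplied, for selected genes. The cultures are SD+ino without any, the partial media LIVWHM and ARNCQGKPSDEFTY, and SD+aa with all. SD+aa lacked inositol, and the other cultures held it per the array titles. MET3, MET6 and ADE17 lie below -2 with LIVWHM and above 1.5 with ARNCQGKPSDEFTY, while MEP2 (3.49 against 0.01) lies the other way.

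Ethanol and galactose cultures with and without amino acids allowed the difference itself to be compared between carbon sources. In ethanol 13 of the 33 higher genes had a difference 2-fold or more above 0 (1.35% of all genes did), and 11 passed the test there (limma; 0.565% of all genes). Of these 11, 9 belong to sulfate and methionine metabolism: SUL1, SUL2, MET3, MET14, MET5, MET10, MET28, MET13 and MET6; the others were SER33 and COS2. MET3 had a difference of 3.05 in ethanol and 3.24 in dextrose, and the difference between them was 0.19 ± 0.39. The nitrogen genes had smaller differences in ethanol than in dextrose, with 1.77 for MEP2, 0.42 for GAP1, 0.14 for MEP1, 0.20 for DAL5 and 0.04 for GDH1, but the test of dextrose against ethanol did not pass for any of these (adjusted p = 0.112, 0.131, 0.31, 0.0808 and 0.128, limma).

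Over all genes the amino acid difference in dextrose was distinguishable from that in ethanol at 3 genes (0.0547%) and from that in galactose at 17 (0.31%; limma). Against ethanol they were BAP3, RTC2 and MUP1. BAP3 differed by -5.01 in dextrose and 0.49 in ethanol, a difference of -5.50 ± 0.39 (adjusted p = 0.00154, limma). MUP1 lay at -1.84 in dextrose and 2.47 in ethanol, a difference of -4.31 ± 0.46 (adjusted p = 0.0236, limma). RTC2 lay at 2.75 and -0.31 (3.06 ± 0.36, adjusted p = 0.0295, limma). In galactose 3 of the 33 higher genes had a difference 2-fold or more above 0 (6.31% of all genes did); MET6 passed as higher there (2.00; 0.109% of all genes) and RTC2 as lower (-1.69; 0.0547%). Of the 5 lower genes 1, TAT2, had a difference 2-fold or more below 0 in ethanol (-1.08; 1.08% of all genes did) and 0 had one in galactose (3.59%). Of the 17 genes that differed between dextrose and galactose, MEP2 (6.41 against -0.18), GAP1 (5.38 against -0.97) and SUL1 (5.45 against -0.58) were the farthest apart. The partner cultures with and without inositol differed with an SD across genes of 0.61 and 0.85 in galactose, against 0.22 and 0.35 in ethanol.

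**Figure D5:**
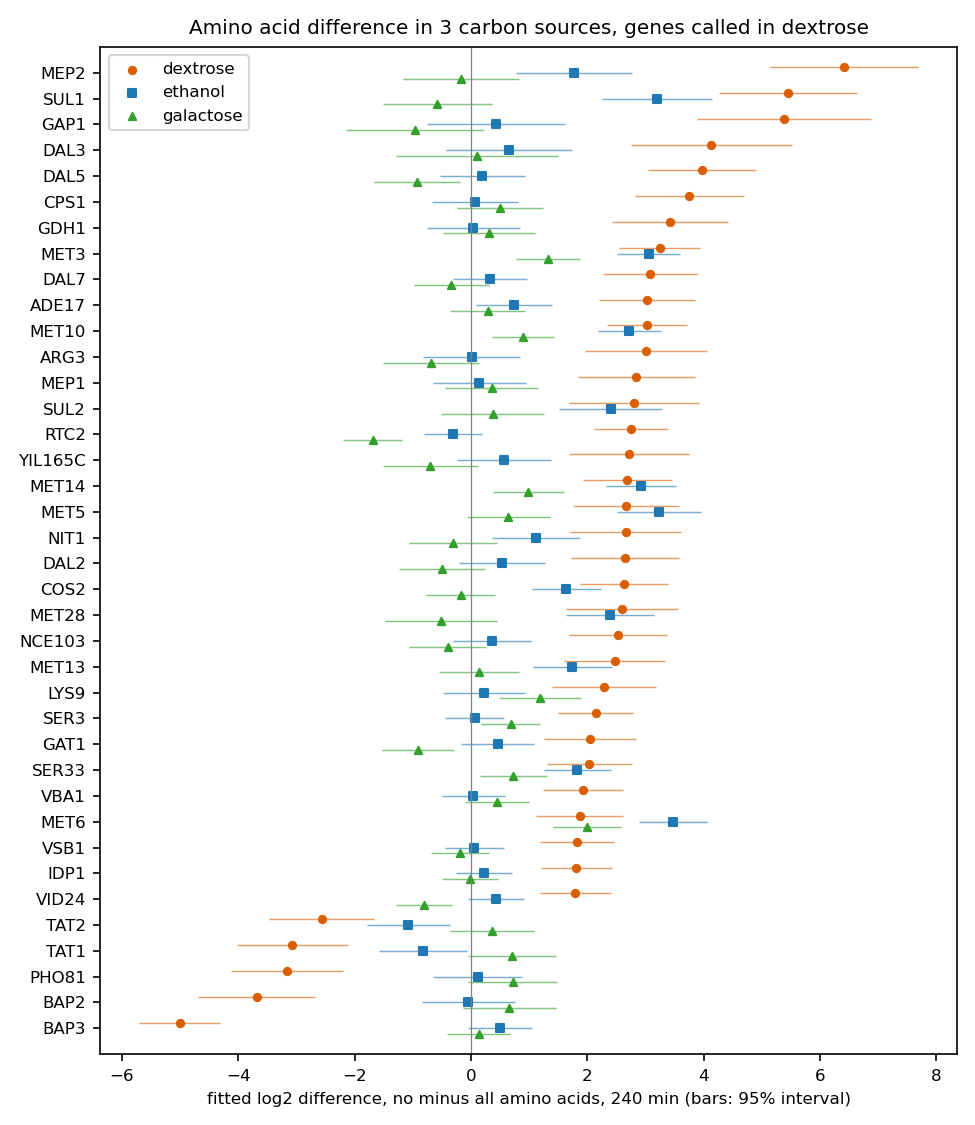
Fitted log2 difference without against with all amino acids at 240 min in dextrose, ethanol and galactose for the genes that passed in dextrose. MET3 lies near 3 in both dextrose and ethanol, whereas GAP1 (5.38 against 0.42 and -0.97) and BAP3 (-5.01 against 0.49 and 0.13) lie farther from 0 in dextrose than in either other carbon source.

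How firmly each call stands depended on single cultures. With 4 residual degrees of freedom, leaving out SD gave 13 calls and leaving out SD+ino 11, of which 12 and 11 were among the 38. Leaving out any ethanol culture, Sgal or Sgal+ino gave 21 or 22. The calls of BAP3, CPS1, DAL5, MEP2, MET10, MET3, RTC2 and SUL1 were kept in all 10 such fits, and the other 30 calls were lost in 1 or more of them. For MEP2 these calls rest on levels at the upper limit. Leaving out either culture of an ethanol or galactose pair gave the same dextrose difference for genes with a value in both. The 10 fits are therefore not 10 separate checks. The direction of the 38 differences turned in none of the 947 refitted values (planned and added alternatives). This was nearly fixed in advance, since every refit kept SD+aa and several settings left the estimate as it was.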

How the data were processed

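Two-colour cDNA arrays (polyA RNA; Cy5 shifted cells, Cy3 t = 0 cells, per the labels) were used as the value table that the authors deposited. As deposited, the numbers are taken here for log10 ratios of the 2 channels, since they end at exactly 2 in either direction (100-fold), and were multiplied by 3.32 here to give log2; the base, direction, background correction and normalization are not given in the sources used here, and signal and background intensities were not used, so the number of arrays and cultures limits the precision. Of 6256 probes, 5568 had 1 gene symbol, 0 several and 688 none; 5563 were found in the R64 gene table, used for names and neighbours. Probes of a gene were averaged (29 genes), giving 5538 genes. Repeat arrays were averaged within a culture. Genes with a value in all 3 dextrose cultures and in 9 or more of 11 cultures (those given every amino acid or none) were tested (5488; 50 left out). The 240 min values of these cultures (14 arrays) were fitted in limma 3.58.1 (R 4.3.3; lmFit, eBayes) with a term for each carbon source with or without amino acids and 1 for inositol, leaving 4 residual degrees of freedom. P values were 2-sided, adjusted by Benjamini-Hochberg, with a threshold of 0.05, and measure the spread between single cultures of different media, since each medium was grown once. The code was tested on simulated data of the same design. There 0% of simulated log2 changes of 1 passed, 69% of changes of 2 and 91% of changes of 3. A gene that did not pass may therefore still have changed. The genes named are those past the threshold up to the 20 largest differences in each direction, up to 4 members of each list with the largest differences, and a fixed set (GCN4, GAP1, MEP2, ADE2, INO1, ARG1, HIS4, LEU1, LYS1, MET3, MET6, GDH1, AGP1, BAP2, CHA1 and SNZ1); other genes were named after their values were seen. The comparison, its members and the 25 lists (308 genes, 299 tested) were chosen with earlier results of these data known. Lists are described by counts and medians, with no set test. Scaling, array choice, filters, the inositol term, the cultures fitted and leaving out each culture were varied.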

Additional observations from a re-analysis of the deposited data

Results flagged for a closer look

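The amino acid difference differed between dextrose and another carbon source, by the test of that difference in limma (adjusted p under 0.05), at 20 gene and carbon source pairs. Against ethanol, the dextrose difference minus the other one was -5.50 for BAP3, -4.31 for MUP1 and 3.06 for RTC2. Against galactose it was 6.59 for MEP2, 6.35 for GAP1, 6.03 for SUL1, 4.90 for DAL5, 4.44 for RTC2, 3.42 for DAL7, 2.95 for GAT1, 2.81 for COS2 and 2.61 for VID24, genes that were higher without amino acids in dextrose. It was -5.14 for BAP3, -4.35 for BAP2, -3.88 for PHO81 and -3.77 for TAT1, which were lower there. The other 4 genes against galactose did not pass in dextrose alone: the aromatic aminotransferase gene ARO9 (3.78, from -0.01 in dextrose and -3.79 in galactose), MCH4 (3.29, from 2.03 and -1.26), PHO3 (-3.02, from -1.84 and 1.18), and CYS4 (-2.30, from -0.49 and 1.80), with MUP1 the like case against ethanol (from -1.84 and 2.47). ARO9, MCH4, PHO3 and CYS4 are outside the rule for named genes or were named after their values were seen. No cause of these differences was tested.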

How the results depend on the processing

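The count of 38 genes in dextrose became 1471 (693 higher) after quantile normalization, 90 on the mean of 120 and 240 min, 194 with only the 3 dextrose cultures or with the 5 dextrose cultures in 4 amino acid levels, and 8 with a further 2-fold threshold. Leaving out 1 culture gave 11 to 43. Without the ethanol cultures it was 17 and without the galactose cultures 89, both chosen after seeing the data. All 38 were among the calls after quantile normalization, on the mean of 120 and 240 min, in both dextrose-only fits and without the galactose cultures. Both dextrose-only fits give the same result by construction, since each partial medium had a level of its own. Centring gave 35, and the other alternatives gave 35 to 49. The 3 genes that differed between dextrose and ethanol became 813 after quantile normalization and 32 on the mean of 120 and 240 min, and 1 to 5 with 1 culture left out. The 17 against galactose became 859 and 86, 30 without the inositol term, and 4 (without Sgal+ino) to 44 (without Sgal+aa) with 1 culture left out. The cause was not tested, except that the quantile scaling stretches the dextrose arrays by construction. Over 121 named or called genes, 2569 of 3019 refitted values kept direction and side of the threshold, 221 lost the threshold, 209 gained it and 20 changed sign, none of a gene that passed. The sign changes were at ALP1 (0.079 after quantile normalization, and -0.245 without SD to 0.067 without SD+ino), CIT2 (-0.937) and HSP12 (-0.26, both after quantile normalization), CHA1 (-0.021 on the second arrays, -0.088 on the mean of 120 and 240 min, and -0.237 without SD to 0.205 without SD+ino), HIP1 (-0.434 after quantile normalization, -0.00387 on the first arrays, -0.181 on the mean of 120 and 240 min, -0.0429 without the inositol term and with 3 or 5 dextrose cultures) and INO1 (-0.0155 in those last 3 settings, -0.0575 without the galactose cultures, and -0.0788 without SD+ino to 0.329 without SD). No paired analysis was possible because each medium was 1 culture with the replicate number 1. SD+aa could not be left out, so the direction of the genes that passed had little room to turn. MEP2 could not be tested with values at the limit set to missing, and of 647 probes without a gene name 1 passed.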
